A study of Mus musculus with 12 samples.

Results

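The genes described here are those of major histocompatibility complex (MHC) class II antigen presentation in the mouse: 10 genes chosen by symbol, of 55401 genes counted. They are the classical chains H2-Aa, H2-Ab1 and H2-Eb1, the invariant chain Cd74, the peptide editors H2-DMa, H2-DMb1 and H2-DMb2, the modulators H2-Oa and H2-Ob, and the transactivator Ciita. All 10 passed the filter on low counts, as did 16915 genes in all. The libraries, 4 in each of 3 groups, were made from peritoneal lavage cells of C57BL/6J mice (8 mL of phosphate-buffered saline). The ID8 group had received ID8 cells, a mouse ovarian surface epithelial cancer line that here carries the added genes Defb29 and Vegfa, 7 days earlier by intraperitoneal injection. The ID8-FSHR group had received, at the same time point, the same Defb29 and Vegfa line with the receptor for follicle-stimulating hormone overexpressed. The uninjected group had received nothing, so an effect of the tumour and an effect of injecting cells cannot be told apart. The labels call the libraries biological replicates, do not say whether mice were pooled, and give no age or sex. The comparisons ask how the cells of the cavity differ with tumour, and with tumour that carries the receptor.

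MHC class II molecules present peptides from the endosomes of B cells, macrophages and dendritic cells to CD4+ T cells. The alpha and beta chains assemble in the endoplasmic reticulum with the invariant chain, which blocks the groove and leads the complex to the endosome, where proteases cut it down to the fragment CLIP. H2-DM, an alpha chain paired with 1 of the beta chains DMb1 or DMb2, then removes CLIP and edits the peptide, and H2-O holds H2-DM back, mostly in B cells. CIITA does not bind DNA itself: it is recruited by the RFX complex, CREB and NF-Y, which sit on the X and Y boxes of the promoters, and it is induced by interferon gamma. C57BL/6 mice make no H2-E alpha chain because their H2-Ea gene lacks its promoter, so H2-A is their classical molecule on the cell surface although H2-Eb1 is transcribed.

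Total counts per library lay between 47419608 and 64333677, and a count of 0 allows up to 3 counts, or 0.0444 to 0.0653 CPM (the usual per-million scale, by effective library size), for counting error only. The labels give the cell type as a cell line, but leukocyte genes were present in every library, and 10 pan-leukocyte genes summed to 3167 to 4010 CPM in ID8, 3635 to 6077 in ID8-FSHR and 6984 to 7549 in the uninjected group. Genes of mesothelium and of the ID8 line summed to 2740 to 3455 CPM in ID8, 961 to 2495 in ID8-FSHR and 20.6 to 23.5 without injection. ID8-FSHR replicate 2 stood apart from the other 3 libraries of its group, with the 961 and the 6077 CPM of those ranges, and results that rest on it are given with and without it. Fshr had 0 to 7 counts per library, so its row does not check the receptor label, and Defb29 had 423 to 1787 counts per tumour library against 0 in every uninjected one. No marker gene in the 11 cell type lists used here was at 0 in all 12 libraries.

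Of the members, 8 lie in the class II region of chromosome 17 in build GRCm38 (GENCODE M21), and Ciita lies on chromosome 16. In map order they are H2-Oa (ENSMUSG00000024334.9, chr17:34092340-34095234), H2-DMa (ENSMUSG00000037649.10, chr17:34119541-34139101), H2-DMb2 (ENSMUSG00000037548.15, chr17:34143307-34151555) and H2-DMb1 (ENSMUSG00000079547.4, chr17:34153072-34160230). They go on with H2-Ob (ENSMUSG00000041538.16, chr17:34238903-34254414), H2-Ab1 (ENSMUSG00000073421.6, chr17:34257689-34269419), H2-Aa (ENSMUSG00000036594.15, chr17:34282744-34287823) and H2-Eb1 (ENSMUSG00000060586.11, chr17:34305867-34316674). Only H2-Aa is on the minus strand. Ciita (ENSMUSG00000022504.10) spans chr16:10480059-10528418. H2-DMb1 and H2-DMb2 are near-identical copies: 369 stretches of 50 bases occur in the exons of both, which is 22.7% of those of H2-DMb1 and 21.2% of those of H2-DMb2, so how reads were split between them is uncertain. No other pair of members shared any such stretch. Exons of H2-DMa, H2-Oa and Ciita overlap genes on the other strand by 360, 321 and 329 bases (Brd2, BC051537 and Dexi). With a strand setting not given in the sources used here, reads there cannot be assigned to 1 gene.

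Promoter sequence from RefSeq (GRCm38.p6) was at hand for 7 of the 10 members, and it is shown because members that share the class II promoter boxes had unlike changes in level, described below. Each line gives the 52 bases that end with the Y box core, on the strand of the gene and 5′ to 3′. Capitals mark the Y box core TGATTGG at the end, the X box core (AAC and ATGATG with any 2 bases between), and in H2-Aa the palindrome TGACGTCA.
H2-Eb1 chr17:34305761-34305812 (+): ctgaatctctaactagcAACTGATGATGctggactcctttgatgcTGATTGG
H2-Ob chr17:34238801-34238852 (+): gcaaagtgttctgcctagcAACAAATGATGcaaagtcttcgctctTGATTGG
H2-DMb2 chr17:34145112-34145163 (+): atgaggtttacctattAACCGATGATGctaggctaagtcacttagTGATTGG
H2-Oa chr17:34092289-34092340 (+): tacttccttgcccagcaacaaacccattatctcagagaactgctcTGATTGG
H2-Aa chr17:34287867-34287918 (-): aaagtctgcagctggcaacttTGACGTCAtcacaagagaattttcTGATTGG
The Y box core stood 45 to 92 bases before the gene starts of RefSeq. Both strands of the 250 bases before the start were searched in 32851 windows, with letters chosen after these promoters had been seen. TGATTGG occurred in 7.23% of all windows and in those of 6 members (the 5 shown and H2-DMb1), the X core in 0.119%, and TGACGTCA in 1.55%. The X core followed by the Y core within 40 bases on the same strand occurred in 4 windows (0.0122%), which were those of H2-Eb1, H2-Ob, H2-DMb2 and H2-DMb1, with 15 to 18 bases between the cores. The window of H2-DMb2 lies in an intron of its longer annotated model. That of H2-DMb1 lies inside its annotated first exon and is not shown. It carries the same 2 cores at the same spacing as that of H2-DMb2, with 47 of 52 bases identical, where the other pairs of windows had 14 to 27. The matches describe letters and show no binding.

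Per length (RPKM, here CPM per kilobase of merged exons), Cd74 was the most abundant member in every group, at 2144 ± 284 RPKM in the uninjected mice (SD, n = 4). Its counts put it at rank 16 or 17 of all genes in each uninjected library, 20 to 35 in ID8 and 8 to 38 in ID8-FSHR. H2-Eb1 followed at 504 ± 77.2 RPKM without injection, then H2-Aa at 318 ± 46.6 and H2-Ab1 at 281 ± 42.6, a pair whose ranges overlapped. H2-DMb2 stood at 115 ± 13.6 RPKM, above H2-DMa at 36.7 ± 4.70, H2-DMb1 at 35.6 ± 4.29 and H2-Ob at 33.3 ± 4.78, and the last 3 were within each other's spread. H2-Oa at 18.1 ± 1.33 RPKM and Ciita at 11.2 ± 1.86 RPKM were lowest. In ID8 H2-Ab1 and H2-Aa were nearly equal, at 174 ± 27.6 and 173 ± 26.7 RPKM. Below the classical chains the order of the means changed with tumour. H2-DMb2 dropped from 5th to 7th place in both tumour groups, at 21.8 ± 3.22 RPKM in ID8 and 20.7 ± 3.48 in ID8-FSHR, and H2-DMb1 took 5th place, at 32.3 ± 8.58 and 50.1 ± 23.5 RPKM. The ranges of H2-DMa, H2-DMb1 and H2-DMb2 overlapped in both tumour groups.

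**Figure D1:**
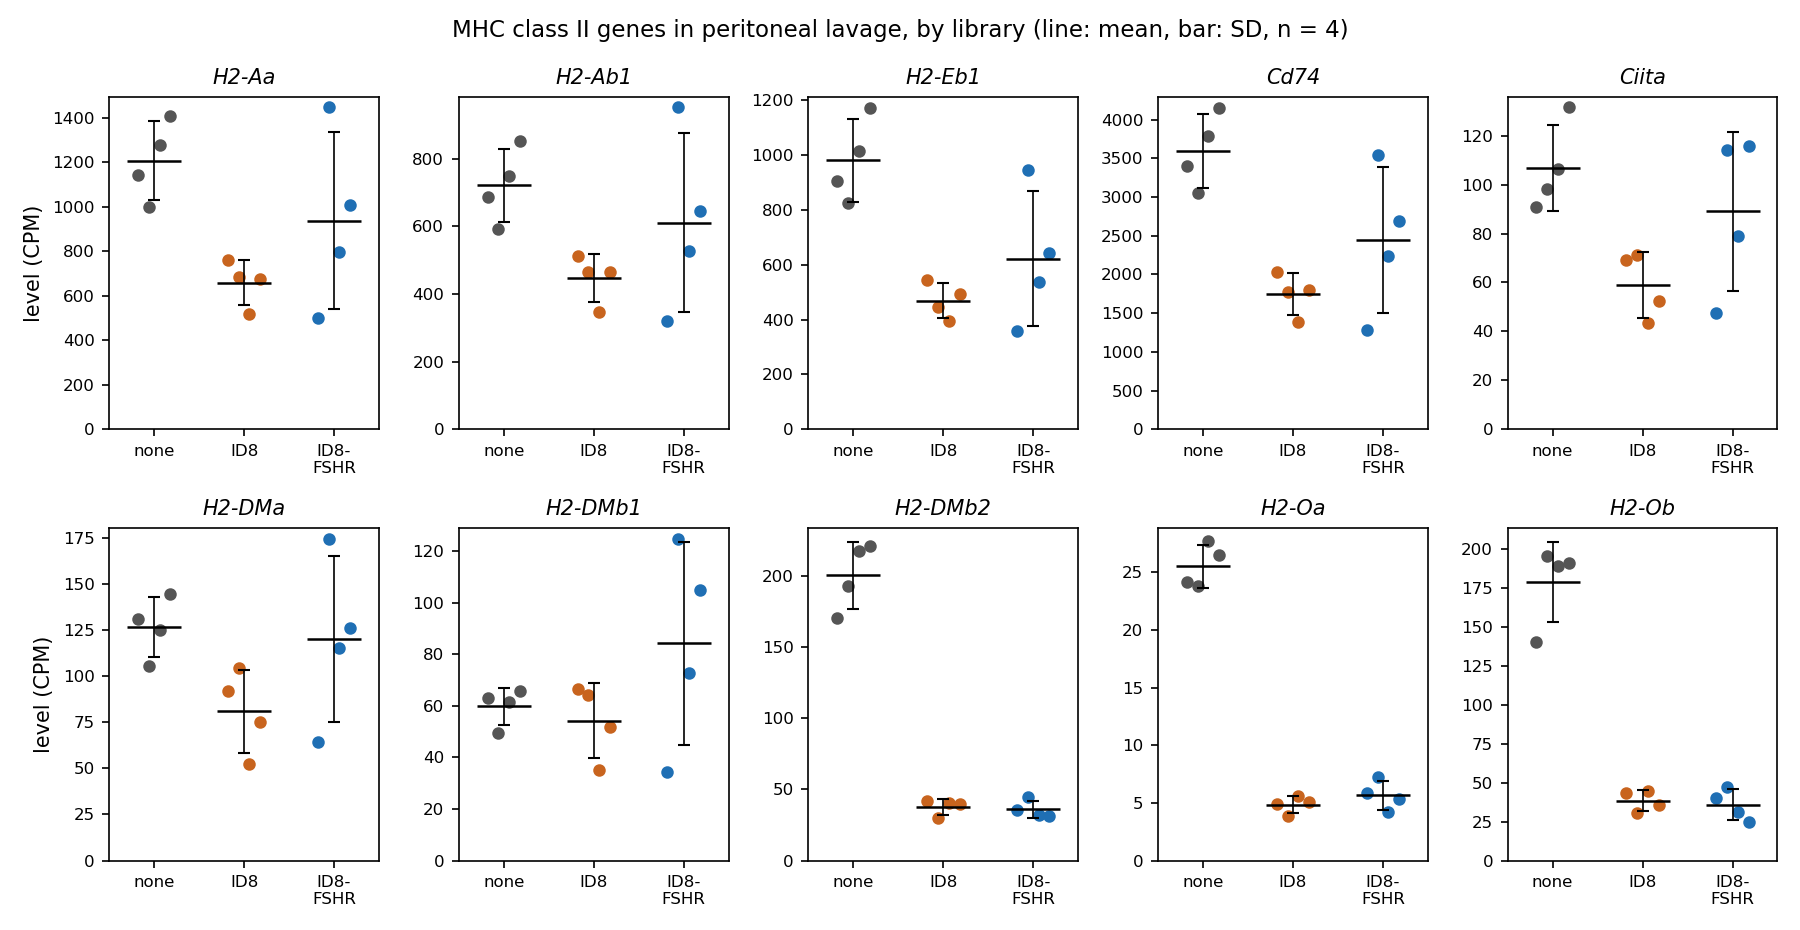
Level of each of the 10 members in every library, in CPM on axes that start at 0, with 1 panel per gene, 1 point per library and bars for the mean ± SD of the 4 libraries of a group (none: uninjected). H2-DMb2, H2-Oa and H2-Ob are high only in the uninjected libraries, while the other members spread widely in ID8-FSHR, where replicate 2 is highest or next to highest and replicate 1 is lowest except for H2-DMb2, H2-Oa and H2-Ob.

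In ID8 lavage 9 of the 10 members were lower than without injection, and H2-DMb1 alone was not called. Across all genes 31.4% were lower, 32.7% higher and 64.1% called in either direction, by edgeR's quasi-likelihood test at a Benjamini-Hochberg adjusted p under 0.05. Ranges were separate for 9 members, against 62.5% of all genes. The median log2 difference of the 10 members was -0.96, where that of all tested genes was -0.03. In ID8-FSHR lavage 4 members were lower than without injection (H2-Eb1, H2-DMb2, H2-Oa and H2-Ob) and none was higher, beside 30.6% lower, 33.9% higher and 64.5% called either way among all genes. Ranges were separate for 3 members, against 57.0% of all genes, and the median log2 difference was -0.46 against 0.00 for all genes. Both comparisons use the same 4 uninjected libraries. In whole lavage RNA, fewer cells of a type and less RNA per cell cannot be told apart.

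The 3 classical chains were lower in ID8 by 1.6- to 2.1-fold. H2-Aa, the alpha chain of H2-A, stood at 759, 685, 517 and 675 in ID8 replicates 1 to 4, at 500.4, 1448, 795 and 1008 in ID8-FSHR, and at 1141, 997, 1279 and 1409 CPM without injection. Every ID8 library lay below every uninjected one, while the ID8-FSHR libraries ran from below the lowest ID8 library to above the highest uninjected one. The log2 fold change of H2-Aa was -0.87 in ID8 (SE 0.25, edgeR adjusted p = 0.00817) and -0.36 in ID8-FSHR (SE 0.25, edgeR adjusted p = 0.217). H2-Ab1, the beta chain of H2-A, went from 721 ± 109 CPM without injection to 447 ± 71.0 in ID8 and 611 ± 264 in ID8-FSHR (SD, n = 4 each). Its fall in ID8 was -0.69 on the log2 scale (SE 0.25, edgeR adjusted p = 0.0301), and in ID8-FSHR its difference of -0.24 did not pass (edgeR adjusted p = 0.426). The call in ID8 was lost when ID8 replicate 2, 3 or 4, or uninjected replicate 1, 3 or 4, was left out, with log2 values of -0.71 to -0.58 and edgeR adjusted p of 0.05 to 0.0874. It was lost as well with no filter on low counts (-0.67, edgeR adjusted p = 0.0961).

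H2-Eb1, a beta chain with no alpha partner in this strain, was the classical chain that fell in both tumour groups. It had 544, 446, 394 and 493 in ID8, 359, 947, 538 and 643 in ID8-FSHR, and 907, 825, 1015 and 1172 CPM without injection. The ID8 libraries all lay below the uninjected ones, and in ID8-FSHR only replicate 2 reached into their range. The log2 fold change was -1.06 in ID8 (SE 0.23, edgeR adjusted p = 0.00134) and -0.66 in ID8-FSHR (SE 0.23, edgeR adjusted p = 0.0236). The call in ID8-FSHR was lost without ID8-FSHR replicate 3 (-0.59, edgeR adjusted p = 0.0656) and without uninjected replicate 4 (-0.56, edgeR adjusted p = 0.0694), and held without ID8-FSHR replicate 2 (-0.83, edgeR adjusted p = 0.00241). Read within each library, with 0.5 CPM added to each level here and in every ratio below, H2-Eb1 was 0.794 to 0.832 of that of H2-Aa without injection, 0.652 to 0.762 in ID8 and 0.638 to 0.718 in ID8-FSHR. Neither tumour group overlapped the uninjected one. The exact permutation p = 0.0286 in each (two-sided, 4 against 4) is the smallest that 70 assignments allow, and with an adjusted p = 0.0545 over 21 ratio comparisons it did not pass.

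Cd74 (ENSMUSG00000024610.15, chromosome 18) encodes the invariant chain, the chaperone of class II and also a receptor for the cytokine MIF. Its levels were 2035, 1767, 1392 and 1795 in ID8, 1278, 3544, 2242 and 2696 in ID8-FSHR, and 3401, 3052, 3792 and 4154 CPM without injection. All ID8 libraries were below all uninjected ones, and ID8-FSHR replicate 2 alone among the tumour libraries was within the uninjected range. Cd74 fell by 1.04 on the log2 scale in ID8 (SE 0.24, edgeR adjusted p = 0.002). In ID8-FSHR the log2 difference was -0.56 (SE 0.24, edgeR adjusted p = 0.0543), which did not pass. Without ID8-FSHR replicate 2 it was -0.69 and passed (edgeR adjusted p = 0.017), as did that of H2-Aa (-0.55, edgeR adjusted p = 0.0447), so that 6 members were lower, where 27.0% of all genes were. The ratio of Cd74 to H2-Ab1 was 4.86 to 5.14 without injection, 3.78 to 4.02 in ID8 and 3.72 to 4.24 in ID8-FSHR. Both tumour groups lay wholly below the uninjected one (exact permutation p = 0.0286 each, n = 4 against 4), with the same adjusted p = 0.0545.

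Of the H2-DM genes, H2-DMa fell in ID8, H2-DMb2 fell in both tumour groups, and H2-DMb1 was not called. H2-DMa, the alpha chain of the editor, stood at 92.3, 105, 52.6 and 75.2 in ID8, at 64.5, 175, 115 and 126 in ID8-FSHR, and at 131, 106, 125 and 145 CPM without injection. ID8 replicate 2 came close to the lowest uninjected library without reaching it, and the ID8-FSHR group overlapped both others. Its log2 difference in ID8, -0.64, passed narrowly (SE 0.26, edgeR adjusted p = 0.0446), and in ID8-FSHR it was -0.08 (SE 0.26, edgeR adjusted p = 0.81). The ID8 call was lost in 9 of 12 fits that left out 1 library, all but those without ID8 replicate 2, ID8-FSHR replicate 1 or uninjected replicate 2, with edgeR adjusted p of 0.0554 to 0.125 and log2 values of -0.71 to -0.48 in those 9. It was lost as well with median-of-ratios size factors (-0.59, edgeR adjusted p = 0.0556) and with no filter on low counts (-0.63, edgeR adjusted p = 0.132).

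H2-DMb1 and H2-DMb2 encode alternative beta chains for the same alpha chain, and the test of the difference between them is the ratio given further on. H2-DMb1 had 66.4, 64.1, 35.0 and 51.6 in ID8, 34.4, 124, 72.8 and 105 in ID8-FSHR, and 63.0, 49.3, 61.3 and 65.6 CPM without injection. The groups overlapped in both comparisons, with log2 differences of -0.14 in ID8 (SE 0.31, edgeR adjusted p = 0.712) and 0.49 in ID8-FSHR (SE 0.31, edgeR adjusted p = 0.181). Without ID8-FSHR replicate 1 the latter was 0.76 and passed as higher (edgeR adjusted p = 0.00849). H2-DMb2 had 42.1, 29.7, 40.6 and 39.6 in ID8, 35.9, 44.8, 32.3 and 31.5 in ID8-FSHR, and 171, 193, 218 and 221 CPM without injection. All 8 tumour libraries lay far below the uninjected ones and the tumour groups overlapped. It was 5.28-fold lower in ID8 (log2 -2.40, SE 0.14, edgeR adjusted p = 1.51e-08) and 5.56-fold lower in ID8-FSHR (log2 -2.48, SE 0.14, edgeR adjusted p = 1.36e-08).

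H2-Oa and H2-Ob, the chains of H2-O, fell about as far as H2-DMb2 in both tumour groups. H2-Oa had 4.92, 3.87, 5.60 and 5.04 in ID8, 5.88, 7.26, 4.17 and 5.29 in ID8-FSHR, and 24.1, 23.8, 27.7 and 26.5 CPM without injection. H2-Ob had 43.2, 30.8, 44.7 and 35.4 in ID8, 40.3, 47.1, 31.1 and 24.6 in ID8-FSHR, and 141, 195, 189 and 191 CPM without injection. For both genes no tumour library came near the uninjected range, and uninjected replicate 1 was the lowest of its group for H2-Ob. H2-Oa was 5.25-fold lower in ID8 (log2 -2.39, SE 0.16, edgeR adjusted p = 5.8e-08) and 4.52-fold lower in ID8-FSHR (log2 -2.18, SE 0.16, edgeR adjusted p = 1.29e-07). H2-Ob was 4.65-fold lower in ID8 (log2 -2.22, SE 0.19, edgeR adjusted p = 5.36e-07) and 5.00-fold lower in ID8-FSHR (log2 -2.32, SE 0.20, edgeR adjusted p = 3.72e-07). Both genes, and H2-DMb2, were called lower in both tumour groups in each of the 20 alternative fits run per comparison, those without any 1 library included.

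Ciita, the master regulator of class II transcription, fell in ID8 about as far as the classical chains. Its levels were 69.0, 71.4, 43.3 and 52.2 in ID8, 47.5, 114, 79.1 and 116 in ID8-FSHR, and 91.0, 98.2, 107 and 132 CPM without injection. The ID8 libraries lay below the uninjected ones, and the ID8-FSHR libraries spread from among the lowest ID8 to within the uninjected range. The log2 fold change was -0.86 in ID8 (SE 0.25, edgeR adjusted p = 0.00898) and -0.26 in ID8-FSHR (SE 0.25, edgeR adjusted p = 0.37). Ciita against Cd74 within a library gave log2 ratios whose group means differed by 0.18 in ID8 (exact permutation p = 0.2) and 0.31 in ID8-FSHR (exact permutation p = 0.0571, adjusted p = 0.1), with overlapping groups.

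**Figure D2:**
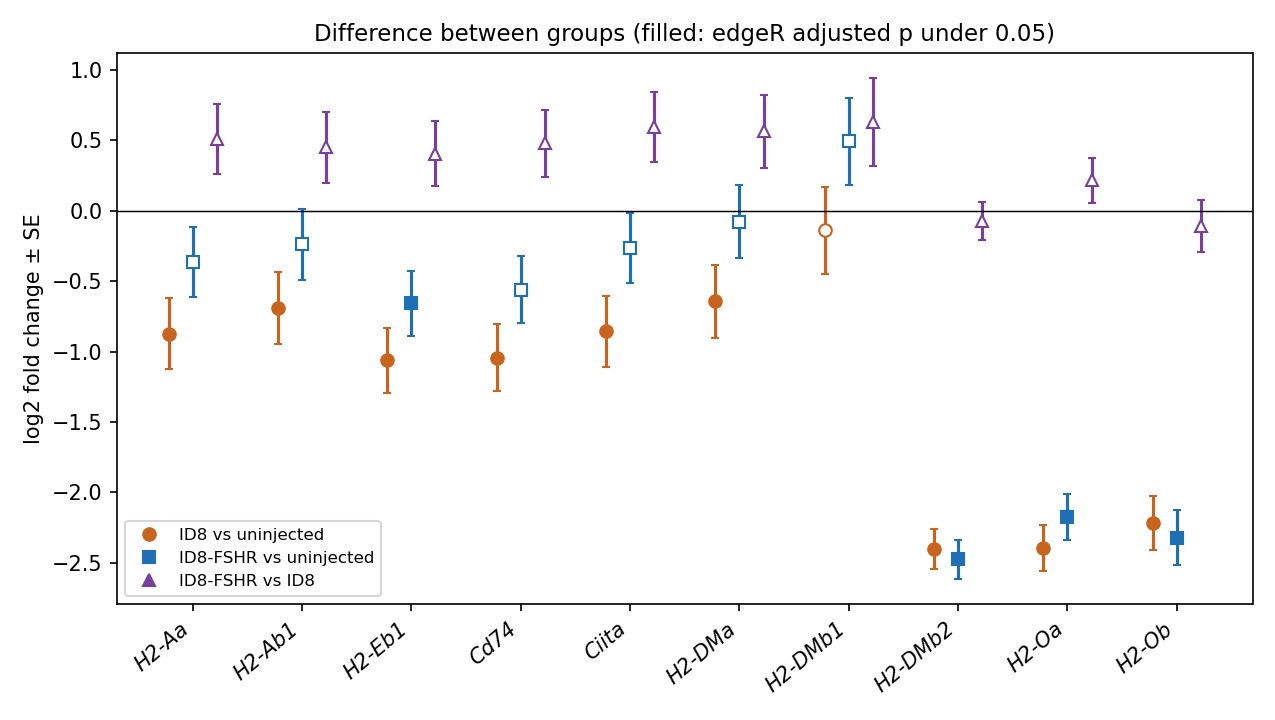
Log2 fold change of each member with its SE, in the 3 comparisons, with filled points for edgeR adjusted p under 0.05 and a line at 0. H2-DMb2, H2-Oa and H2-Ob lie at -2.48 to -2.18 against the uninjected group in both tumour groups, and no point is filled for ID8-FSHR against ID8.

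ID8-FSHR against ID8 asks what the receptor-bearing tumour adds. Genes of mesothelium and of the ID8 line summed to 961 to 2495 CPM in ID8-FSHR and 2740 to 3455 in ID8, without overlap. An effect of the receptor and one of the share of tumour cells in the lavage cannot be told apart here. None of the 10 members was called, beside 11.6% of all genes (6.04% higher and 5.56% lower), and none had groups that did not overlap, beside 18.5% of all genes. The median log2 difference of the members was 0.47, that of the 10 pan-leukocyte genes was 0.42, and that of all genes was -0.01. At an unadjusted edgeR p under 0.05 there were 2 members, Ciita at 0.59 (SE 0.25, edgeR adjusted p = 0.138) and H2-DMa at 0.57 (SE 0.26, edgeR adjusted p = 0.172). DESeq2 and limma-voom also called none. The other values were 0.63 for H2-DMb1, 0.51 for H2-Aa, 0.48 for Cd74, 0.45 for H2-Ab1 and 0.41 for H2-Eb1, with edgeR adjusted p of 0.199 to 0.266. H2-Oa at 0.22, H2-DMb2 at -0.07 and H2-Ob at -0.11 were closest to 0 (edgeR adjusted p of 0.393 to 0.754). A difference that misses the threshold at this spread does not show that the groups were alike.

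That count of 0 rested on ID8-FSHR replicate 1, the lowest of its group for H2-Aa, H2-Ab1, H2-Eb1, Cd74, H2-DMa, H2-DMb1 and Ciita. Without it those 7 members were called higher in ID8-FSHR than in ID8, where 10.0% of all genes were. Their log2 differences were then 0.60 for H2-Eb1 to 0.89 for H2-DMb1, with edgeR adjusted p of 0.0137 to 0.0407. Relative to the 10 pan-leukocyte genes, a scale given further on, the differences without that library were smaller. They were 0.11 for H2-Eb1 to 0.44 for H2-DMb1, and were not tested. Against the uninjected group, leaving out the same library left H2-Eb1, H2-DMb2, H2-Oa and H2-Ob called lower, beside 28.3% of all genes, and H2-DMb1 higher as given above. Without ID8-FSHR replicate 2, which was highest of its group for H2-Aa, H2-Ab1, H2-Eb1, Cd74, H2-DMa and H2-DMb1, no member was called against ID8, and the log2 differences of those 6 were 0.15 to 0.40. The summed level of 13 genes of the interferon gamma response was lowest in replicate 1 (853 CPM) and 1881 to 3339 CPM in the other ID8-FSHR libraries, and the sum of 8 T cell genes was 72.2 CPM in replicate 1, 142 in replicate 2, 65.0 in replicate 3 and 126 in replicate 4. The part of either in the members' spread was not tested.

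Ratios within a library do not rest on the scaling between libraries, apart from the small constant added. The ratio of H2-DMb2 to H2-DMb1 was 2.7, 3.89, 3.54 and 3.36 without injection. It was 0.636, 0.468, 1.16 and 0.770 in ID8, and 1.04, 0.362, 0.447 and 0.304 in ID8-FSHR. H2-DMb2 thus had more counts than H2-DMb1 in each uninjected library, in ID8 replicate 3 and in ID8-FSHR replicate 1, and fewer in the other 6 tumour libraries, with exons of 1.747 and 1.681 kb. The mean log2 ratio differed from that without injection by -2.22 in ID8 and -2.81 in ID8-FSHR, which is 4.65- and 7.02-fold, with no overlap (exact permutation p = 0.0286 each, two-sided, n = 4 against 4, adjusted p = 0.0545). For H2-Ob against H2-DMb1 the log2 differences were -2.03 and -2.68, also with no overlap. How reads of the shared stretches were split bears on both ratios and was not tested.

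The ratio of the modulator to the editor, read as H2-Oa to H2-DMa, was 0.187, 0.229, 0.225 and 0.186 without injection, 0.0584, 0.0416, 0.115 and 0.0732 in ID8, and 0.0982, 0.0443, 0.0403 and 0.0458 in ID8-FSHR. No tumour library reached the uninjected range. The log2 difference was -1.61 in ID8 and -1.95 in ID8-FSHR (exact permutation p = 0.0286 each, n = 4 against 4, adjusted p = 0.0545). H2-DMa against H2-Aa had log2 differences of the other sign, 0.20 in ID8 (exact permutation p = 0.2, overlapping) and 0.30 in ID8-FSHR (exact permutation p = 0.0286, adjusted p = 0.0545). In all, 11 of 21 ratio comparisons were at the smallest p the design allows, each of them against the uninjected group, and none of the 21 passed after adjustment. Between ID8-FSHR and ID8 the ratios overlapped (exact permutation p of 0.229 to 0.486).

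**Figure D3:**
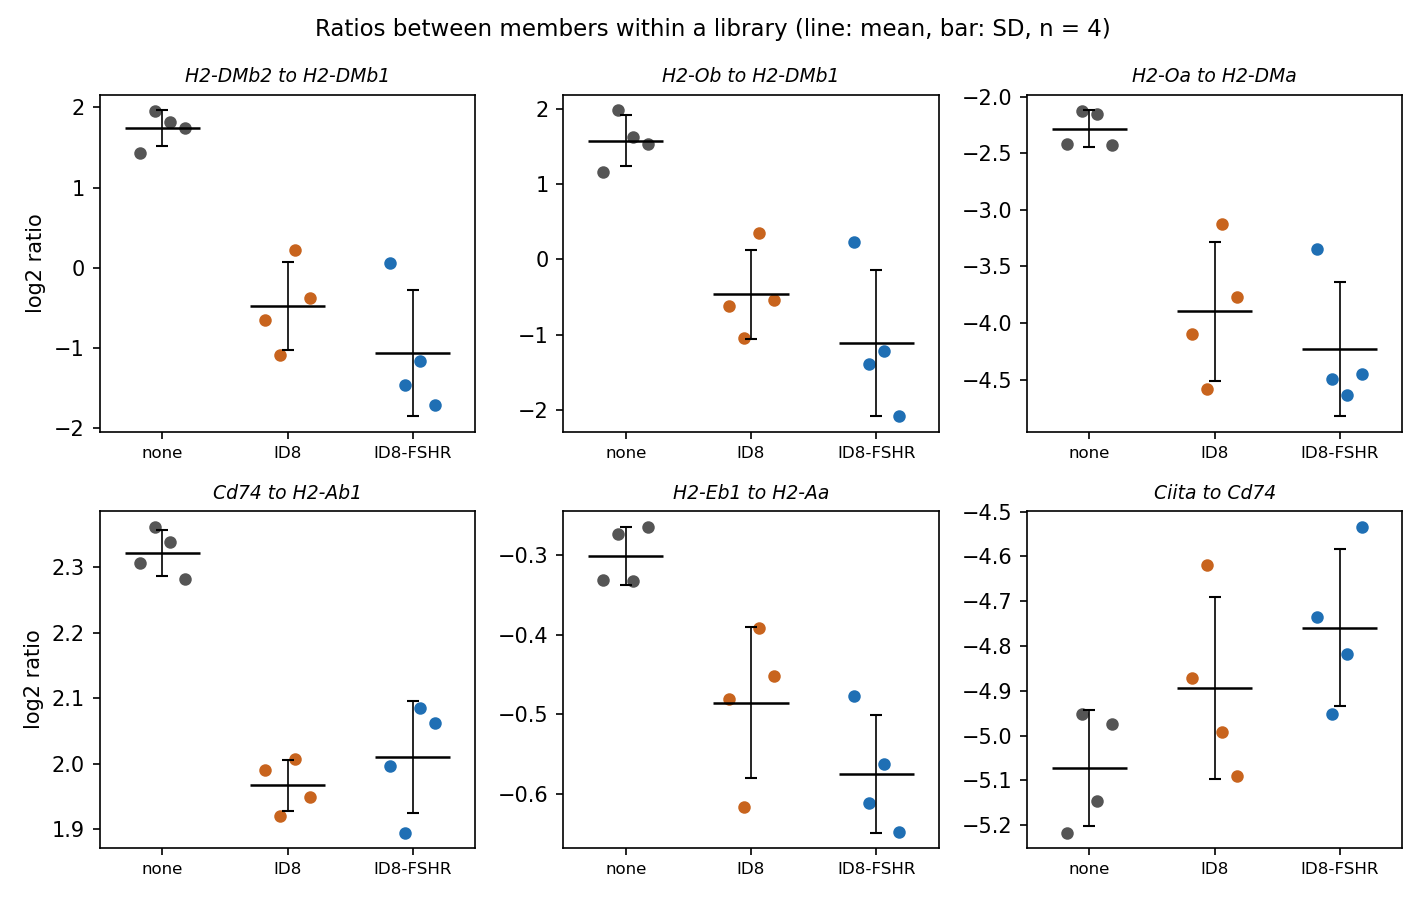
Log2 of 6 ratios between members, in each library, with the mean ± SD of each group of 4 (none: uninjected). For H2-DMb2 to H2-DMb1, H2-Ob to H2-DMb1 and H2-Oa to H2-DMa every tumour library lies below every uninjected library, and the tumour groups overlap in each panel.

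All 10 pan-leukocyte genes were themselves lower with tumour, in ID8 (median log2 -1.14) and in ID8-FSHR (median -0.84), beside the tumour genes given above. The 10 fell unevenly, from -0.87 (Laptm5) to -2.03 (Coro1a) in ID8 and from -0.50 (Fermt3) to -1.59 (Coro1a) in ID8-FSHR. The members were therefore also read against those 10 genes, as log2 of CPM plus 0.5 minus the mean over the 10. On this scale H2-DMb2 differed from the uninjected group by -1.16 in ID8 and -1.58 in ID8-FSHR, H2-Oa by -1.05 and -1.21, and H2-Ob by -0.97 and -1.45. These 3 stayed below the uninjected range in every tumour library. H2-DMb1 had differences of the other sign, 1.06 in ID8 and 1.23 in ID8-FSHR, above the uninjected range in every tumour library. The classical chains and Cd74 lay at 0.16 to 0.56, H2-DMa at 0.56 and 0.74, and Ciita at 0.37 and 0.56. Of 30 such comparisons, 10 reached the smallest exact permutation p = 0.0286 (n = 4 against 4), which is an adjusted p = 0.0857, so none passed after adjustment. Between ID8-FSHR and ID8 the differences on this scale were -0.48 to 0.19. ID8-FSHR replicate 2, which had the highest pan-leukocyte level of the tumour libraries, is not the highest of its group on this scale for any member: for H2-Aa it stood at 2.09 and replicate 4 at 2.14.

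**Figure D4:**
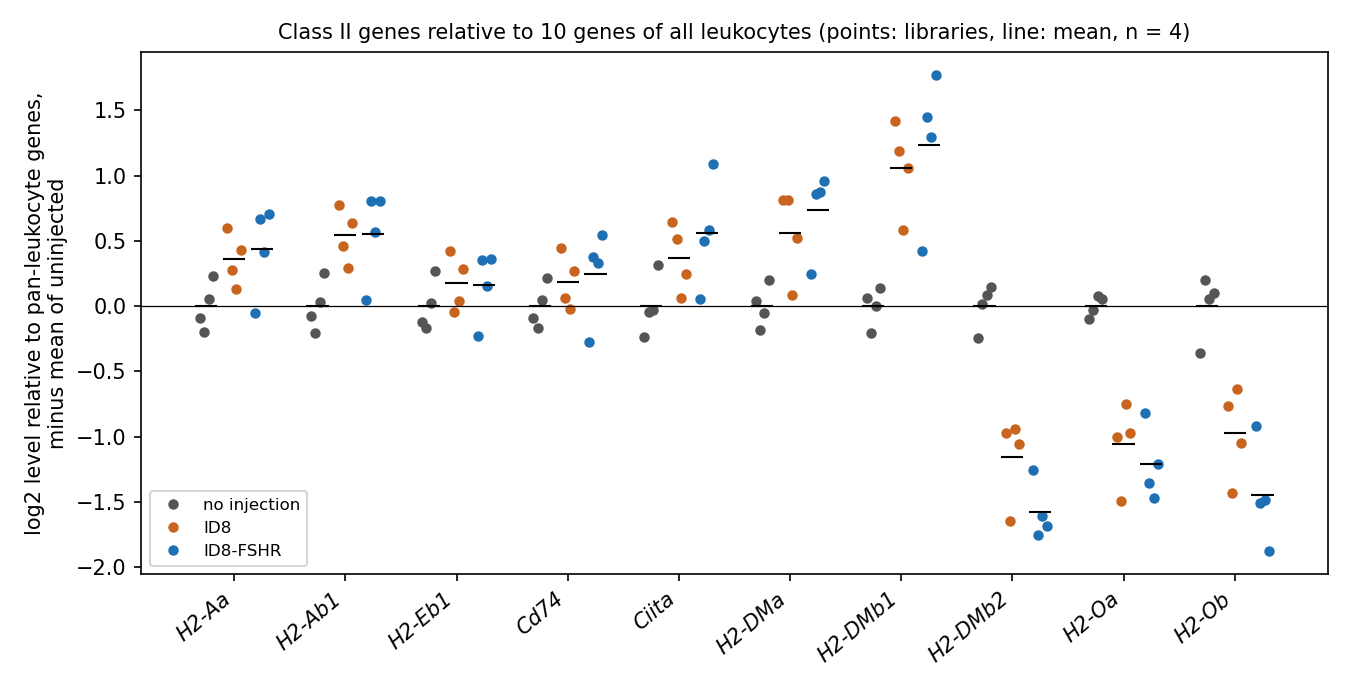
Level of each member relative to 10 pan-leukocyte genes in every library, as log2 minus the mean of the uninjected group, with a line at 0. The tumour libraries lie below 0 for H2-DMb2, H2-Oa and H2-Ob, and above it for H2-DMb1.

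Markers of cell types that carry class II, and of T cells, were also counted. Among all genes 31.4% were lower and 64.1% called either way in ID8, and 30.6% and 64.5% in ID8-FSHR, against no injection. The 10 B cell genes were all lower in both tumour groups (median log2 -2.79 in ID8 and -2.96 in ID8-FSHR), and their sum went from 3092 to 4044 CPM without injection to 400 to 579 in ID8 and 346 to 620 in ID8-FSHR. Between the tumour groups the median of the 10 was -0.13. H2-DMb2, H2-Oa and H2-Ob fell with them, and over the 12 libraries the log2 levels of these 3 had correlations of 0.98 to 0.99 with each other and -0.15 to -0.05 with H2-DMb1, a description over libraries that share 3 groups. Of 10 markers of large peritoneal macrophages, 8 were lower in each tumour group and Gata6 was higher. Of 10 markers of conventional dendritic cells, 6 were lower in ID8 and 5 in ID8-FSHR, Zbtb46 was higher in both (log2 1.74 and 1.52), and their sum was 217 to 265 CPM without injection, 111 to 131 in ID8 and 108 to 191 in ID8-FSHR. Of 10 monocyte and small macrophage genes, 3 were lower and 1 higher in ID8, and 3 lower and 3 higher in ID8-FSHR. Ly6c2 was the one that differed between the tumour groups (log2 2.10, SE 0.50, edgeR adjusted p = 0.0191). Of 8 T cell genes, 7 were lower in ID8 than without injection, and the median for ID8-FSHR was 0.10. Cd3e, Cd3g, Lck and Cd247 were higher in ID8-FSHR than in ID8, as were 6.04% of all genes. Of 5 plasmacytoid dendritic cell genes, 2 were lower in each tumour group, and 1 was higher in ID8 and 2 in ID8-FSHR. The shares called in the dendritic cell and monocyte lists did not stand clearly apart from those of all genes. The part of cell makeup in the members' differences was not tested.

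**Figure D5:**
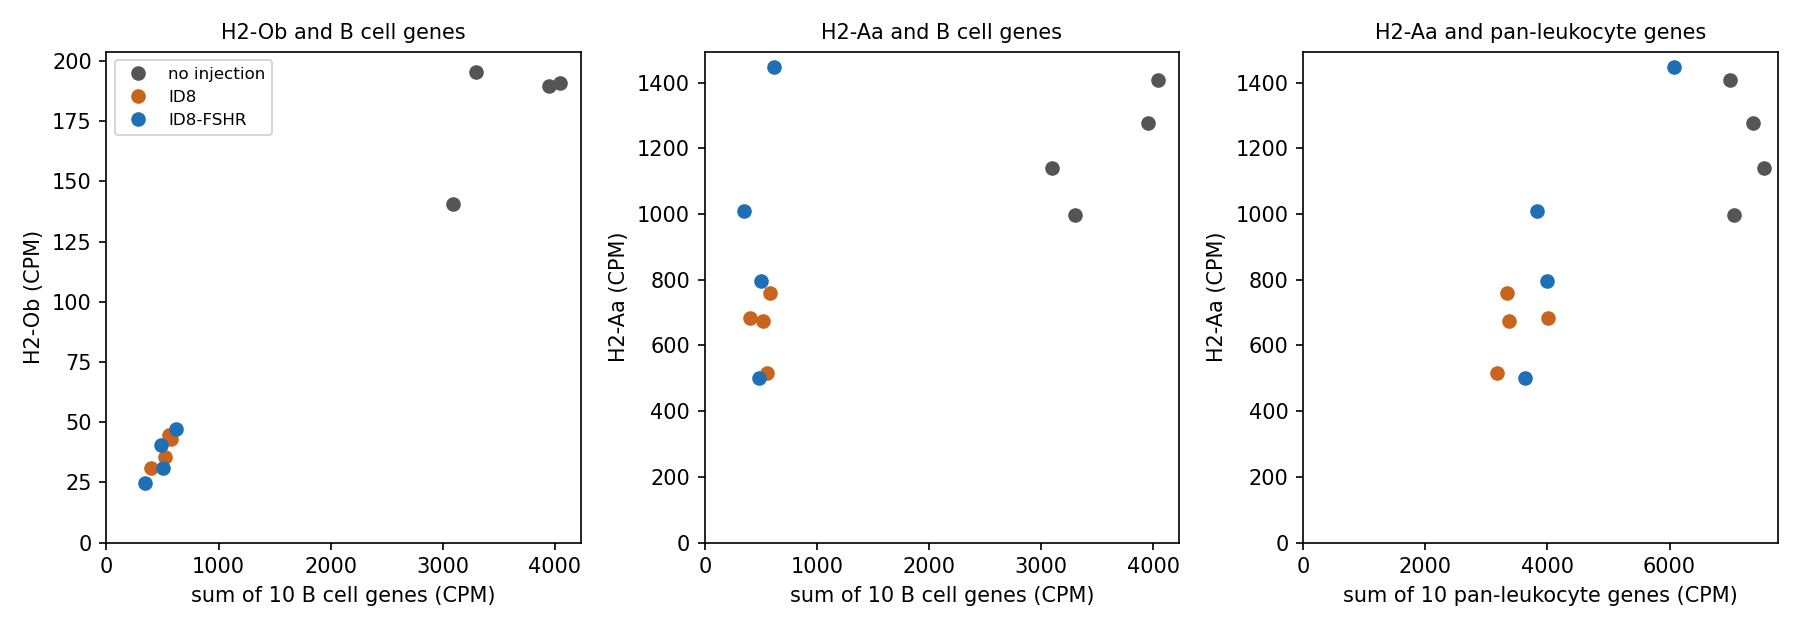
Level of H2-Ob and of H2-Aa against the summed CPM of 10 B cell genes, and of H2-Aa against the summed CPM of 10 pan-leukocyte genes, 1 point per library. H2-Ob and the B cell sum are both high in the uninjected libraries and both low in the tumour libraries, while H2-Aa varies widely among ID8-FSHR libraries whose B cell sums lie between 346 and 620 CPM.

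Factors that bind class II promoters or act with CIITA had log2 differences of at most 0.90 in size in both tumour groups. Of 10, 5 were lower in ID8 (Rfxank, Nfya, Nfyc, Creb1 and Crebbp) and 6 in ID8-FSHR (Rfx5 too), with a median log2 difference of -0.30 and -0.26, and Kat2b was higher in both. The share called in ID8, 6 of 10, is near the 64.1% of all genes. Among all genes 31.4% were lower in ID8 and 30.6% in ID8-FSHR, where 64.5% were called either way. Rfxank, the ankyrin subunit of the RFX complex, had 15.1 ± 0.619 CPM without injection, 10.3 ± 1.24 in ID8 (log2 -0.55, edgeR adjusted p = 0.00047) and 10.3 ± 0.880 in ID8-FSHR (SD, n = 4 each). Kat2b, a histone acetyltransferase that acts with CIITA, had 76.8, 73.9, 77.4 and 80.3 CPM without injection and 119 to 155 CPM over the 8 tumour libraries, with no overlap (log2 0.90 in ID8, SE 0.08, edgeR adjusted p = 6.15e-07). Crebbp, a coactivator and acetyltransferase, was the one gene of the list that differed between the tumour groups, lower in ID8-FSHR at 90.0 to 99.2 CPM than in ID8 at 110.5 to 122 CPM (log2 -0.29, SE 0.07, edgeR adjusted p = 0.0204).

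Among 12 genes of invariant chain processing and class II turnover, 5 were lower and 3 higher in each tumour group. That is a share called close to the 64.1% and 64.5% of all genes, and between the tumour groups the median difference was 0.14. The 5 lower genes differed: Ctss was among them in ID8 only, and Ifi30 in ID8-FSHR only. The call of Ifi30 rests on uninjected replicate 2, as described at the end. Of the endosomal proteases, Ctsh and Lgmn were lower in both groups, by -0.86 and -0.78 on the log2 scale in ID8, as was Ctsb, while Ctsl, a protease that cuts the invariant chain in thymic epithelium, was higher (0.92 in ID8, edgeR adjusted p = 2.86e-06, and 0.68 in ID8-FSHR, edgeR adjusted p = 3.97e-05). Ctss, the main invariant chain protease of B cells and dendritic cells, fell in ID8 from 1390.4 ± 119 to 931 ± 86.8 CPM (log2 -0.58, SE 0.19, edgeR adjusted p = 0.015), and its difference of -0.27 in ID8-FSHR did not pass (edgeR adjusted p = 0.218). Of the ubiquitin ligases that remove class II from the surface, Marchf1 went from 203 to 254 CPM without injection to 71.5 to 85.3 in ID8 and 66.1 to 135 in ID8-FSHR (log2 -1.52 and -1.28, edgeR adjusted p = 5.66e-06 and 2.53e-05), and Marchf8 was higher in both groups (0.69 and 0.55). Mif, the cytokine that binds Cd74, was higher in both (0.68 in ID8 and 1.05 in ID8-FSHR).

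The costimulatory genes Cd80, Cd86 and Cd40 were lower in both tumour groups, with no overlap and a median log2 difference of -1.51 in ID8 and -1.13 in ID8-FSHR. The medians of the 10 pan-leukocyte genes were -1.14 and -0.84, and groups did not overlap for 62.5% and 57.0% of all genes. Cd86 had 32.1 to 33.9 CPM in ID8, 33.8 to 52.5 in ID8-FSHR and 68.2 to 91.7 without injection. Of the other class II genes, H2-Eb2 was lower in both, at 5.95 ± 1.03 and 7.66 ± 1.34 CPM against 21.4 ± 4.75 (SD, n = 4 each; log2 -1.85 and -1.48, edgeR adjusted p = 1.75e-06 and 1.14e-05). H2-Ea was at 0 in 10 of 12 libraries, with 1 count in ID8-FSHR replicate 3 and 4 counts in uninjected replicate 3. Of the receptors that bind class II, Cd4 was lower in ID8 (log2 -1.32, edgeR adjusted p = 0.00947) and Lag3 was higher in ID8-FSHR (log2 1.54, edgeR adjusted p = 0.00464), both against no injection and both with overlapping groups.

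Of 13 genes of the interferon gamma response, 5 were higher in ID8, among them Irf1, Gbp2, Cxcl9 and Cxcl10, a share near the 32.7% of all genes called higher there. In ID8-FSHR 10 of 13 were higher, beside 33.9% of all genes, and Ifngr1 and Irf8 were lower in both, with medians of 0.35 and 1.24. Ifng itself was higher in ID8-FSHR (log2 1.94, SE 0.60, edgeR adjusted p = 0.012), at 0.522 to 3.61 CPM against 0.369 to 0.828 without injection. The groups overlapped. Between the tumour groups the median of the 13 was 0.69, but none of the 13 was called, beside 11.6% of all genes, and the groups overlapped for each.

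The genes whose log2 level ran most like that of the members over the 12 libraries were named from 9542 candidates by Pearson correlation, given as a description, since all points share 3 groups. For the mean of the classical chains and Cd74 they were Ptpn1 (0.98), Cd52 (0.98), Pstpip1 (0.98), Ccr2 (0.96) and Rhog (0.96). For H2-Ob they were B3gnt5, Ebf1, Btla, Cbx7 and S1pr1 (0.99 to 1.00 each), among them the B cell transcription factor Ebf1. For Ciita they included Pdk1 (0.97), Sp110 (0.97), Cep85 (0.97) and Il2rg (0.97). Cd52, a small surface glycoprotein of leukocytes, had 58.5 ± 4.63 CPM in ID8, 86.2 ± 34.4 in ID8-FSHR and 134 ± 14.8 without injection, with the same wide spread in ID8-FSHR as the classical chains. Btla, an inhibitory receptor of lymphocytes, had a mean of 21.6 CPM in ID8, 20.2 in ID8-FSHR and 128 without injection, lower in both tumour groups (log2 -2.56 and -2.66, edgeR adjusted p = 4.7e-08 and 3.73e-08).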

How the data were processed

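Whole-number read counts per gene for 12 libraries were used as deposited by the authors, with no normalization seen in the values. They came from bcl2fastq 2.20, STAR 2.7.9a, then featureCounts (Subread 1.6.4) and GRCm38.p6, per the submitters' processing notes. RNA came from lavage cells and libraries from 100 ng after ribosomal RNA depletion, per the labels' protocols, which give 5000000 injected cells where the series text gives 4000000. Strand use and multiply mapped reads depend on settings not given in the sources used here. Groups and replicate numbers were read from the labels.

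All 12 libraries were fitted in R 4.3.3 with edgeR 4.0.16 (TMM scaling, default filter, robust quasi-likelihood F test, group only), with adjustment over 16915 genes at 0.05. Called genes are described as higher, lower, risen or fallen. The fit was tested on simulated data. Ratios and leukocyte-relative levels (0.5 CPM added) were tested by exact permutation over 70 assignments. Alternatives were DESeq2 1.42.0, limma-voom (limma 3.58.1), other scaling, filters and samples, a replicate block, other pseudocounts and references, and leaving out each library. Named genes were the members, genes of the lists, and the 5 nearest by correlation to the classical mean, H2-Ob and Ciita among genes whose log2 CPM averaged 3 or more. Results for some of these genes are not reported here. Members and lists were chosen with earlier results of these data known. Lists of neutrophil (1 of 6 lower in each tumour group), plasma cell (3 and 2 of 5 lower, 2 and 1 higher) and mast cell genes (3 and 4 of 5 lower, 1 higher in each) were also counted. Among all genes 64.1% and 64.5% were called in ID8 and ID8-FSHR against no injection. No pair of libraries in a group agreed within sampling noise. P-values measure the spread between these libraries.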

Additional observations from a re-analysis of the deposited data

Results flagged for a closer look

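In the uninjected group, H2-Ob replicate 1 stood apart, at 141 CPM where the other 3 libraries had 189 to 195 CPM, and the gap was 0.892 of the group's range. The log2 ratio of H2-Oa to H2-DMa in ID8-FSHR had replicate 1 apart, at a ratio of 0.0982 where the others had 0.0403 to 0.0458, a gap of 0.857 of the range. Of 51 groups of 4 examined, these 2 passed the limit, where chance alone gives 2.55.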

How the results depend on the processing

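H2-DMb2, H2-Oa and H2-Ob were lower in both tumour groups under each alternative run. The count of genes called between ID8-FSHR and ID8 was 1962, 3131 with DESeq2, and 961 to 3136 when 1 library was left out (1203, 1035 and 961 without ID8 replicate 1, 3 or 4, 3136 and 1189 without ID8-FSHR replicate 1 or 4, and within 1.5 times without any other). The count of members called between the tumour groups was 0, and 0 to 7 when 1 library was left out, the 7 without ID8-FSHR replicate 1. It was 7 to 9 in ID8 and 3 to 6 in ID8-FSHR against no injection. Signs turned when 1 library was left out for 3 edgeR differences of members near 0: H2-DMb1 in ID8 (-0.25 to 0.026), H2-DMa in ID8-FSHR (-0.21 to 0.13) and H2-Ob between the tumour groups (-0.25 to 0.038). Between the tumour groups, signs on the leukocyte-relative scale turned as well for H2-Aa (-0.017 to 0.24), H2-Ab1 (-0.07 to 0.18) and H2-Eb1 (-0.089 to 0.11). They turned there too for Cd74 (-0.045 to 0.23) and H2-DMb1 (-0.0044 to 0.44). Against Ptprc alone in place of the 10 pan-leukocyte genes, the differences between tumour groups turned to -0.075 for H2-Aa, -0.14 for H2-Ab1 and -0.093 for Cd74. The cause was not tested. Cd74 passed as lower in ID8-FSHR with DESeq2 (-0.52), limma-voom (-0.64) and a filter of 1 CPM in 4 libraries (-0.59), and H2-Eb1 there lost its call with no filter (-0.64) and with the 2 groups alone (-0.65). Median-of-ratios scaling shifted the median of all genes by at most 0.06. The 168 ratio and 240 leukocyte-relative values with 1 library left out moved by less than the SD between replicates. Leaving out 1 of 4 libraries cannot move a mean by that much, so this does not show that the values are stable. Libraries with the same replicate number had correlations of -0.22 to 0.35, which shows no steady pairing by number and cannot exclude one. With the replicate block, 10581, 10666 and 1776 genes were called, and 9, 4 and 0 members in ID8, ID8-FSHR and between tumour groups, with no member's call changed. Depth does not limit the members, whose lowest count was 192 (H2-Oa in ID8 replicate 2), and 4 libraries a group do.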

Other observations

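Ifi30, the lysosomal thiol reductase that opens disulfide bonds of antigens for class II loading, had an uneven pattern, chosen after its values were seen. It had 1394 counts in ID8 replicate 3, 2431 in ID8 replicate 4 and 2127 in uninjected replicate 2, and 0 to 26 counts in the other 9 libraries. It was the 1 gene of the table with at least 10 counts whose lowest value in those 3 libraries exceeded 5 times its highest value in the other 9. Its call as lower in ID8-FSHR (log2 -7.57, SE 2.89, edgeR adjusted p = 0.0368) rests on the 1 uninjected library that had it.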
